A study of Mus musculus with 12 samples.

Results

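The genes described here are 47 genes of the extracellular matrix, taken by name from the 27317 named genes of an Agilent mouse expression array. They encode collagen chains (21 genes), basement membrane glycoproteins and perlecan (6), adhesive or matricellular glycoproteins (8), elastic fiber proteins (5), proteoglycans and hyaluronan synthases (4), and crosslinking lysyl oxidases (3). Each gene was read from its brightest probe, and its other probes served as a check. The cells were macrophages sorted from normal pancreas or from pancreas tumors, with 6 arrays of amplified RNA per group. The mice are labelled as female C57/B6 animals of 4 to 5 months in both groups, and the genotype is labelled "Not provided". The series names wild-type, KPC and FLT3-CRE/LSL-YFP mice as sources without saying which mouse gave which sample, and the treatment text, which all 12 arrays share, speaks of implanted tumors. KPC mice are a genetic model of pancreatic ductal adenocarcinoma that uses Cre in the pancreas. FLT3-CRE/LSL-YFP mice carry a reporter that marks the offspring of Flt3-expressing blood progenitors. The tumor model behind each tumor sample is therefore not settled by the labels.

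In each group, 1 sample name stands on 2 arrays: normal replicates 2 and 3, and tumor replicates 4 and 6. Those arrays were averaged, which left 5 samples per group, listed below in the order normal 1, 2 and 3, 4, 5, 6 and tumor 1, 2, 3, 4 and 6, 5. No label says that the samples came from separate mice, so the p-values rest on the scatter of these samples, part of which may be technical. A value is the log2 signal of a gene relative to the 75th percentile of its array, so a difference of 1 is a doubling. A gene was tested where its brightest probe was scored well above background on 3 or more arrays of a group, and a call means a limma adjusted p under 0.05 over the 16396 genes tested. The number of arrays limits the precision.

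Normal replicates 2 and 3 stood apart from the other arrays before scaling. Their 75th percentile of signal was 398 and 430.2, against up to 1547 on the brightest array, and 39.3% and 39.6% of probes were well above background, against up to 58.8%. All 14 macrophage markers, among them Csf1r, Cd68 and Adgre1, were well above background on all 12 arrays. Their list mean per sample lay between 4.45 and 5.17 in the normal samples and between 4.40 and 4.88 in the tumor samples. Of the 14, 6 had a higher tumor mean and 8 a lower one, and 0 were called, against 0.854% of all genes tested. In 1 of them, Cd163, all tumor samples lay below the normal ones (1.67% of all genes). Cd163 differed by -1.77 (tumor minus normal, limma adjusted p = 0.122) and Adgre1 by -0.80 (0.194). Of 13 acinar cell markers, genes of digestive enzymes, 11 were called lower in tumor, with a median difference of -7.53. They took 0.377% to 2.47% of the summed signal in the normal samples and 0.00532% to 0.156% in the tumor samples.

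The extracellular matrix is the network of secreted proteins and sugars around cells. Fibrillar collagens such as type I and type III give it tensile strength, network collagens and laminins build the basement membranes under epithelium and vessels, and glycoproteins such as fibronectin link fibers to integrins on cells. In pancreas and pancreatic cancer, most fibrillar collagen is made by stellate cells and fibroblasts, while macrophages are known to take up and degrade collagen, to secrete fibronectin, versican, thrombospondin and TGFBI, and, in some states, to transcribe collagen genes themselves.

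Promoter windows of 250 bases before the annotated start are printed for 3 genes. Col1a2 and Col3a1 are shown because the same 2 normal samples were the highest for both, and Vcan because its difference between the groups was among the largest and lay in the opposite direction to most matrix genes. The sequences are from RefSeq on GRCm38.p6, 5′ to 3′ on the strand of the gene: chr6:4505368-4505617 on the plus strand for Col1a2, chr1:45311288-45311537 on the plus strand for Col3a1, and chr13:89742513-89742762 on the minus strand for Vcan. The motifs searched on both strands were the TATA box, spelled TATAAA here, the CCAAT box, named by its own letters, the GC box, spelled GGGCGG, the AP-1 site, spelled TGANTCA, and the cAMP response element, spelled TGACGTCA. Capitals mark their matches, none of which overlap in the windows shown.
Col1a2: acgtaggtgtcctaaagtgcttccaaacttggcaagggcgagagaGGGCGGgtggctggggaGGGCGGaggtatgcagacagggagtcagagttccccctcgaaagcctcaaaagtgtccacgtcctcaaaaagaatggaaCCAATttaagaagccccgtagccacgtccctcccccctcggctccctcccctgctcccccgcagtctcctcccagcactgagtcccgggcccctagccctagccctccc
Col3a1: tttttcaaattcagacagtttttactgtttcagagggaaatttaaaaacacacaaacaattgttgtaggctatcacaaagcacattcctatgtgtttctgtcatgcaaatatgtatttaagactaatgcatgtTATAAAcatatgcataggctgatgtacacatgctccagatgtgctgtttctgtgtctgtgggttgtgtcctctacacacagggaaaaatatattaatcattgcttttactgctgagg
Vcan: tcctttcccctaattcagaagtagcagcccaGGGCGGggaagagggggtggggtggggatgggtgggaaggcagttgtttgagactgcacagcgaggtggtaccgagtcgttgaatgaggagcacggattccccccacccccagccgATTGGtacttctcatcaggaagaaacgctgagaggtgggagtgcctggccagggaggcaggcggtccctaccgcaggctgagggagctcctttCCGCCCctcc
The Col1a2 window held a CCAAT box between 109 and 105 bases before the start and a pair of GC boxes, whose nearer one began 188 bases before it. The Col3a1 window held a TATA box from 117 to 112 bases before the start and none of the other motifs. The Vcan window held a CCAAT box on the opposite strand, from 103 to 99 bases before the start, and GC boxes on either strand. RefSeq windows matched 32 of the 47 genes, with 38 windows in all. Over those 38, the GC box stood in 23 windows, the CCAAT box in 15, the TATA box in 7, and the AP-1 site and the cAMP response element in 1 each. Among all 32851 windows of the table, 32.7% held the GC box, 33.8% the CCAAT box, 12.4% the TATA box, 6.75% the AP-1 site and 1.55% the cAMP response element. A match describes the letters in the window and shows no binding.

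No matrix gene passed the test between tumor and normal macrophages. Fn1, the fibronectin gene, came closest, at a 1.85-fold higher mean in tumor with no overlap between the groups. Thbs1 and Vcan had tumor means 6.40-fold and 3.24-fold higher with overlapping groups. The Thbs1 probe was well above background on only 3 of 6 normal arrays, so its fold depends in part on values not above background. The means of the type I collagen genes Col1a1 and Col1a2 differed by 0.05 and -0.003 on the log2 scale. Of the 47 genes, 35 were tested and 12 were not. Among the 12, Col4a5, Col5a2, Col6a3, Col10a1, Col11a1 and Col17a1 were well above background on no array. Col8a1, Col12a1, Nid2, Fbn1, Fbln5 and Lox were so on some arrays, but on at most 2 of a group. Of the 35 tested, 27 were well above background on all 12 arrays. None of the 35 was called in either direction by limma, against 0.854% of all genes tested (0.335% higher and 0.518% lower in tumor). At an unadjusted p under 0.05 there were 6, Fn1, Thbs1, Vcan and Loxl1 with a higher tumor mean and Col15a1 and Hspg2 with a lower one, where 12.9% of all genes reached that level. In 9 of the 35 genes the mean was higher in tumor and in 26 lower, with a median difference of -0.34, while the median over all genes was -0.0032 and 49.7% of them had a higher tumor mean. The tumor samples lay above all normal samples in 1 of the 35, Fn1 (1.77% of all genes), and below them in 0 (1.67%). In sorted bulk samples, fewer cells of a type and less RNA per cell cannot be told apart.

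**Figure D1:**
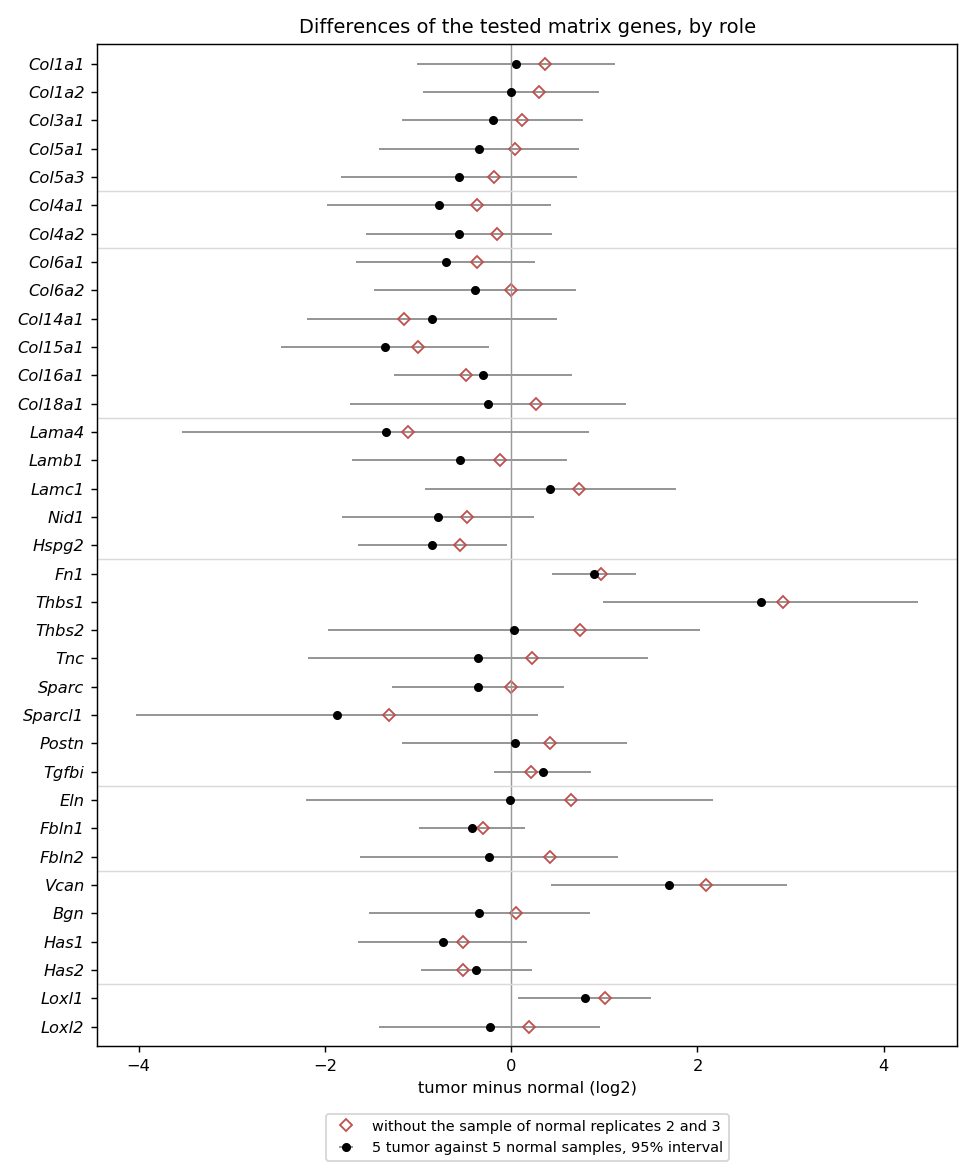
Difference between tumor and normal samples (tumor minus normal, log2) for the 35 matrix genes tested, grouped by role; points are the fitted differences of 5 samples per group and bars their 95% confidence intervals from limma. The intervals of Fn1, Thbs1, Vcan and Loxl1 lie above 0 and those of Col15a1 and Hspg2 below it, and 0 of the 35 passed the adjusted threshold. Postn was at background on all normal arrays.

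Fn1 encodes fibronectin, the glycoprotein that joins collagen fibers to integrins. It measured 4.60, 4.67, 4.19, 4.03 and 4.27 in the normal samples and 5.25, 5.42, 5.32, 5.15 and 5.05 in the tumor samples. The lowest tumor sample lay above the highest normal sample. The means were 4.35 ± 0.27 and 5.24 ± 0.14 (SD, n = 5 each), a difference of 0.89 ± 0.20 (SE), or 1.85-fold with a 95% interval of 1.35 to 2.53. The limma adjusted p over all genes was 0.0854, which misses the threshold. The difference was 0.76, 0.73 and 0.97 within the 3 slides. Fn1 passed in 3 of 11 alternative settings, single slides and omitted samples aside. These were normexp background correction (limma adjusted p = 0.0247), the 12 arrays as separate samples (0.0300) and a variance trend with robust settings (0.0163). Separate arrays count the repeat arrays of 1 sample as independent. It did not pass with quantile normalization (0.0507) or in the authors' deposited log2 table (0.0501). Nor did it with the slide as a term and the sample name as a block (0.112). The highest adjusted p of the 11 settings was 0.182. Its adjusted p over leaving out each sample in turn ran from 0.0699 to 0.215. The probe lies at chr1:71632116-71632175 on the minus strand (mm9), and Fn1 has no other probe. The array annotation gives no exon or untranslated region for it or for the other probes.

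Thbs1 encodes thrombospondin 1, a secreted glycoprotein that restrains vessel growth and can activate latent TGF-beta. It measured -1.85, -1.86, -3.19, -3.90 and -3.36 in the normal samples and -0.07, 1.48, -0.04, -2.98 and 0.85 in the tumor samples. Of the tumor samples, 4 lay above every normal sample and the sample of replicates 4 and 6 lay among the normal ones. The difference was 2.68 ± 0.77 (SE), or 6.40-fold with a 95% interval of 1.98 to 20.7, at a limma adjusted p of 0.167. Without the sample of tumor replicates 4 and 6 it was 3.39, with a limma adjusted p of 0.0220. Within the slides it was 2.41, 1.34 and 2.39. Its probe (chr2:117952585-117952644, plus strand, mm9) was well above background on 3 of 6 normal and 6 of 6 tumor arrays. The size of the fold and its interval thus depend in part on normal values not above background. Thbs1 is also a platelet gene. It stands in the list of 8 platelet and megakaryocyte markers used here. Of these, 7 were tested, Thbs1 among them, and 0 called, against 0.854% of all genes. Of the 7, 3 had a higher tumor mean, Thbs1 among them, and 4 a lower one, with a median difference of -0.33. The part of platelets in the Thbs1 difference was not tested. Ppbp was above background on no array, and the list's mean lay between -0.99 and -0.20 in the normal and between -1.20 and -0.09 in the tumor samples.

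Of the remaining adhesive and matricellular genes, 0 reached an unadjusted p under 0.05. All 8 genes of that group were tested, 5 had a higher mean in tumor and the median difference was 0.03. Tgfbi encodes a secreted adapter between collagen and integrins that TGF-beta induces. It measured 4.19, 3.57, 4.39, 4.11 and 4.00 in the normal samples and 4.33, 4.73, 4.31, 3.95 and 4.62 in the tumor samples, so that the groups overlapped. Its difference was 0.34 ± 0.24 (SE; limma adjusted p = 0.576). Sparc encodes osteonectin, a collagen-binding glycoprotein. It measured 4.72, 6.28, 5.21, 4.27 and 3.84 in the normal samples and 4.16, 4.73, 4.84, 4.21 and 4.60 in the tumor samples. The tumor values lay inside the normal range, and the difference was -0.36 ± 0.42 (SE). Its 2 other probes gave -0.25 and -0.42. The difference was -0.0014 without normal replicates 2 and 3. Sparcl1, the Sparc-like protein also known as hevin, measured -2.97, -0.48, -3.03, -1.40 and -5.53 in the normal samples and -5.66, -5.27, -4.30, -5.66 and -1.85 in the tumor samples. It was well above background on 3 normal arrays and 1 tumor array, so most of its tumor values are those of a probe not above background, and no fold is given for it. Tnc, which encodes tenascin C, differed by -0.35 ± 0.83 (SE) on its brightest probe and by 0.16 on its other probe, which was well above background on 5 arrays of each group. Thbs2, a relative of Thbs1, was well above background on 2 normal and 3 tumor arrays and differed by 0.03 ± 0.90 (SE). Postn, which encodes periostin, was so on 0 of 6 normal and 3 of 6 tumor arrays, and no difference is given for it. It is 1 of the 9 genes counted with a higher tumor mean.

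**Figure D2:**
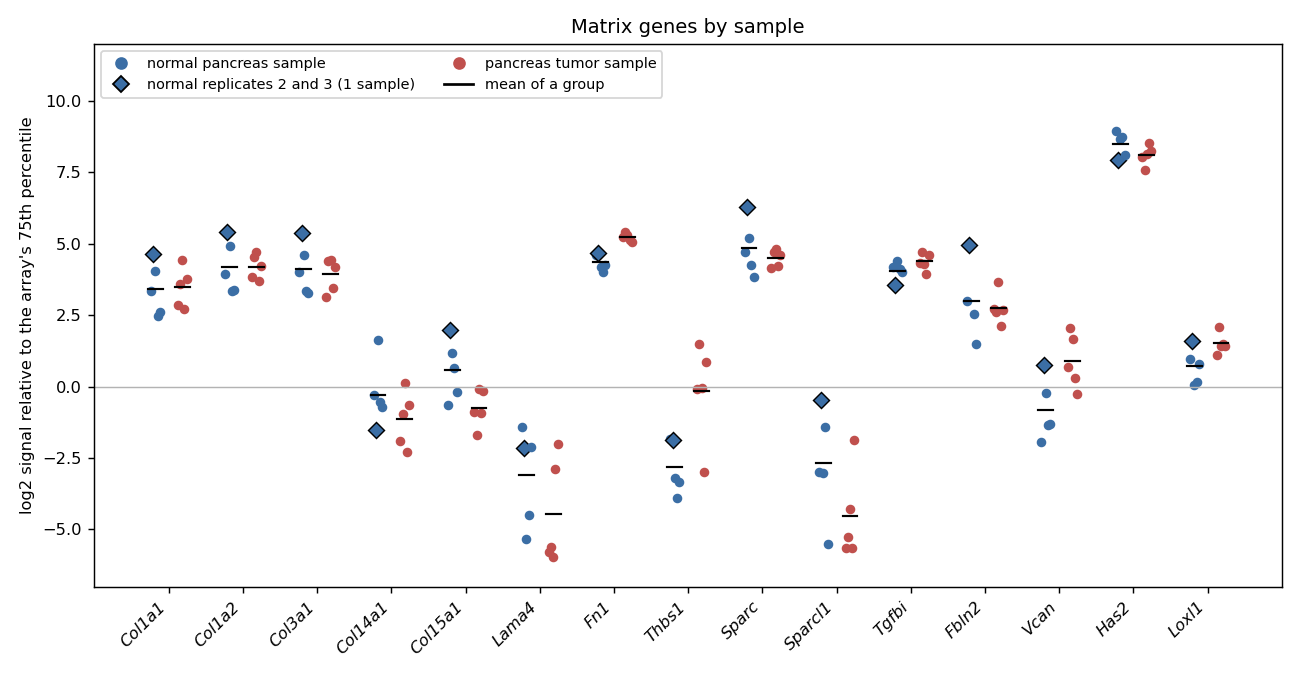
Log2 signal relative to the 75th percentile of each array (vertical axis) of the 15 matrix genes with per-sample values, for each of the 5 normal and 5 tumor samples; short bars are group means and the diamonds are the sample of normal replicates 2 and 3. The groups of Fn1 are separate, and the diamond is the highest point in Col1a1, Col1a2, Col3a1, Col15a1, Sparc, Sparcl1 and Fbln2.

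Of the 4 genes of proteoglycans and hyaluronan synthases, all tested, 1 had a higher tumor mean, Vcan, and 3 a lower one. Their median difference was -0.36. Vcan encodes versican, a large chondroitin sulfate proteoglycan that binds hyaluronan and that monocytes make. It measured -1.92, 0.77, -0.22, -1.34 and -1.29 in the normal samples and 0.70, 2.04, 1.67, 0.31 and -0.26 in the tumor samples. The highest normal value, of replicates 2 and 3, lay above 3 of the 5 tumor values. The difference was 1.69 ± 0.58 (SE), or 3.24-fold with a 95% interval of 1.34 to 7.82, at a limma adjusted p of 0.246. Within the slides it was 1.99, 0.62 and 1.40. The probe lies at chr13:89851810-89851869 on the minus strand (mm9), and the 2 other Vcan probes were well above background on no array. Vcan also stands in the list of monocyte markers used here, of which 9 were tested, Vcan among them, all 9 had a higher tumor mean and 3 were called, F10 and Hp among them. That list's summed signal was 0.0271% to 0.0396% in the normal and 0.0482% to 0.0936% in the tumor samples, and the part of monocytes in the Vcan difference was not tested.

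Has2 encodes a hyaluronan synthase of the cell membrane. It measured 8.95, 7.92, 8.67, 8.75 and 8.12 in the normal samples and 8.05, 7.59, 8.14, 8.52 and 8.26 in the tumor samples, which overlap. The 7.92 is the average of repeat arrays that read 6.90 and 8.94, the widest gap between those arrays among the 35 genes. Its difference was -0.37 ± 0.27 (SE; adjusted p = 0.590). The mean of Has2 stood at the 99.8th percentile of all genes tested. Both this level and the difference rest on a single probe, and no other probe checks them. Has1, a related synthase, differed by -0.74 and Bgn, the small proteoglycan biglycan, by -0.34, with limma adjusted p-values of 0.485 and 0.820. Has1 was well above background on 4 normal and 2 tumor arrays, so most of its tumor values are those of a probe not above background.

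For the fibrillar collagens the group means were close. Col1a1 and Col1a2 encode the chains of type I collagen, and Col3a1 that of type III. Col1a1 measured 3.34, 4.65, 4.06, 2.46 and 2.60 in the normal samples and 2.84, 3.58, 4.45, 2.72 and 3.77 in the tumor samples. Col1a2 measured 3.94, 5.42, 4.93, 3.36 and 3.38 in the normal samples and 3.83, 4.54, 4.71, 3.69 and 4.23 in the tumor samples. Col3a1 measured 4.03, 5.37, 4.62, 3.35 and 3.27 in the normal samples and 3.14, 4.40, 4.43, 3.47 and 4.20 in the tumor samples. In all 3 genes, normal replicates 2 and 3 and then normal replicate 4 were the highest normal samples, and normal replicates 5 and 6 the lowest. The differences were 0.05 (95% interval -1.01 to 1.12), -0.003 (-0.95 to 0.94) and -0.20 (-1.17 to 0.78), so changes of up to about a doubling in either direction lie within the intervals of the type I chains. The sign of Col1a2 and Col3a1 turned with normexp background correction (0.11 and 0.0054), and that of Col1a2 also with quantile normalization (0.064). All 3 were well above background on all 12 arrays. Col5a1 and Col5a3, chains of the type V collagen that seeds fibrils, differed by -0.34 and -0.56, and the median of the 5 fibrillar genes tested was -0.20, or 0.11 without normal replicates 2 and 3.

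The network and other collagens had lower tumor means in all 8 genes tested, of which 0 passed the test and 5 turned to a higher tumor mean within slide 3. Col4a1 and Col4a2, the pair that forms the main type IV collagen of basement membranes, differed by -0.77 ± 0.55 and -0.56 ± 0.45 (SE). These were -0.37 and -0.15 without normal replicates 2 and 3. The 6 tested genes of beaded-filament, fibril-associated and other collagens had differences from -1.35 to -0.25 with a median of -0.54. Col15a1, a collagen of the outer face of basement membranes, measured -0.63, 1.99, 1.18, 0.65 and -0.19 in the normal samples and -0.89, -1.70, -0.08, -0.94 and -0.17 in the tumor samples. Normal replicates 1 and 6 lay within the tumor range and the other 3 samples above it. The difference was -1.35 ± 0.51 (SE; 95% interval -2.47 to -0.24; limma adjusted p = 0.297), and its 2 other probes gave -1.48 and -0.44. Without normal replicates 2 and 3 the difference was -1.01. Col14a1, which decorates type I fibrils, measured -0.29, -1.50, 1.64, -0.54 and -0.72 in the normal samples and -1.89, -0.97, 0.11, -2.29 and -0.64 in the tumor samples. Unlike in the type I and type III genes, normal replicate 4 was highest and normal replicates 2 and 3 lowest among the normal samples. Its difference was -0.85 ± 0.61 (SE; adjusted p = 0.584). Col6a1 and Col6a2, chains of the beaded-filament type VI collagen, differed by -0.70 and -0.39, Col16a1 by -0.30 and Col18a1, whose end fragment is endostatin, by -0.25. Without normal replicates 2 and 3, Col6a1 was at -0.36, Col6a2 at -0.0027, Col16a1 at -0.49 and Col18a1 at 0.27.

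Of the basement membrane genes, 4 of the 5 tested had a lower tumor mean, with a median difference of -0.79. Without normal replicates 2 and 3 the median was -0.48, with 4 of 5 still lower. Hspg2, which encodes perlecan, differed by -0.85 ± 0.36 (SE; adjusted p = 0.358), its other probe gave -0.37, and without normal replicates 2 and 3 it differed by -0.55. Nid1, which encodes the laminin-to-collagen linker nidogen 1, differed by -0.79, and its other probes by -0.28 and -1.23. Lamb1 and Lamc1, the beta and gamma chains of common laminins, differed by -0.55 and 0.42, and by -0.13 and 0.73 without normal replicates 2 and 3. Lama4, the laminin alpha chain of vessel walls, measured -1.40, -2.15, -5.35, -4.49 and -2.10 in the normal samples and -5.80, -5.60, -5.96, -2.87 and -2.01 in the tumor samples. It was well above background on 2 normal and 3 tumor arrays, so most of its values are those of a probe not above background, and no fold is given for it.

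Among the elastic fiber genes, all 3 tested had a lower tumor mean. Fbln2, which encodes fibulin 2, measured 2.995, 4.97, 2.54 and 1.49 in normal replicates 1, 2 and 3, 5 and 6, and 2.71, 2.60, 3.67, 2.13 and 2.68 in the tumor samples. Its only spot on the array of normal replicate 4 carried an outlier flag, so its fit used 4 normal samples, and its difference was -0.24 ± 0.62 (SE). Eln (elastin) and Fbln1 (fibulin 1) differed by -0.02 and -0.42. The other Fbln1 probes, well above background on at most 2 arrays of a group, gave -0.66 and 0.71. Without normal replicates 2 and 3, 1 of the 3 genes had a lower tumor mean. Of the lysyl oxidases, which crosslink collagen and elastin, Loxl1 measured 0.97, 1.61, 0.05, 0.18 and 0.80 in the normal samples and 1.12, 2.08, 1.41, 1.51 and 1.44 in the tumor samples. Normal replicates 2 and 3 lay inside the tumor range and the other 4 below it. The difference was 0.79 ± 0.32 (SE), or 1.73-fold with a 95% interval of 1.05 to 2.84 (adjusted p = 0.338), and its other probe gave 0.62. Loxl2 differed by -0.23.

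The spread of the matrix genes lay mainly between the normal samples, and 1 sample held the highest value of most genes. The sample of normal replicates 2 and 3 had the highest value of all 10 samples in 24 of the 34 genes with a value in every sample, or 70.6%, while it was highest for 19.98% of all genes tested. With other scalings the count was 22 to 24, and the share of all genes 17.4% to 26.2%. It was above all 5 tumor samples in 25 of the 35 genes and the highest normal sample in 29. The next sample by this count, tumor replicate 2, was highest in 5. The lowest value fell to tumor replicates 4 and 6 in 8 of the 34 genes and to normal replicate 5 in 6. Of the genes well above background on no array, Col4a5, Col6a3, Col10a1, Col11a1 and Col17a1 also read highest in normal replicates 2 and 3. Col10a1 read -4.32 there and at most -5.42 in the other samples, and Col17a1 -4.30 and at most -5.38. A probe without signal can thus read higher in that sample after scaling. The part of this in the counts of dim genes was not tested.

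**Figure D3:**
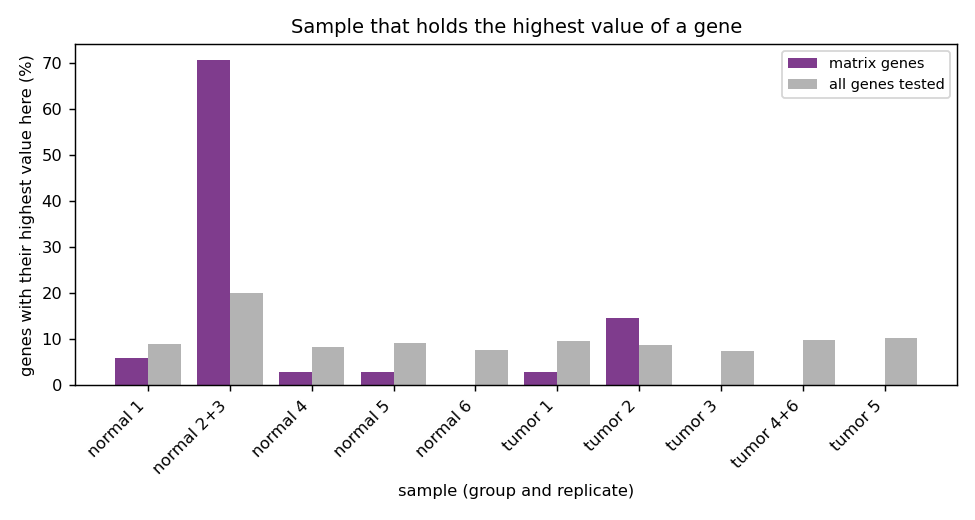
Share of genes (vertical axis, %) whose highest value lies in each of the 10 samples (horizontal axis), for the 34 matrix genes with a value in every sample and for all genes tested. Normal replicates 2 and 3 hold the highest value of 70.6% of the matrix genes and of 19.98% of all genes.

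The pattern was present on both arrays of that sample. Col1a1 measured 4.62 on the array of normal replicate 2 and 4.68 on that of replicate 3, Col3a1 5.36 and 5.38, Col4a1 2.77 and 2.94, and Nid1 3.86 and 3.98. The arrays disagreed for Has2, by 2.04, and for Col15a1, which read 2.56 and 1.42, while the median gap over the 35 genes was 0.14. These arrays lay on different slides but carry 1 sample name, so they show the repeat of a measurement and not a second sample. It also reached across the roles. The mean of the 5 fibrillar collagens was 3.63 in that sample and between 1.30 and 2.82 in the other 9, and that of the 2 network collagens was 2.74 against at most 1.54. The mean of the 5 basement membrane genes was 1.25 against at most 0.41. The standard deviation among the normal samples exceeded that among the tumor samples in 30 of the 35 genes, with medians of 1.01 and 0.66, where 58.8% of all genes had the larger value in normal. Without normal replicates 2 and 3, it did so in 24 of 35.

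**Figure D4:**
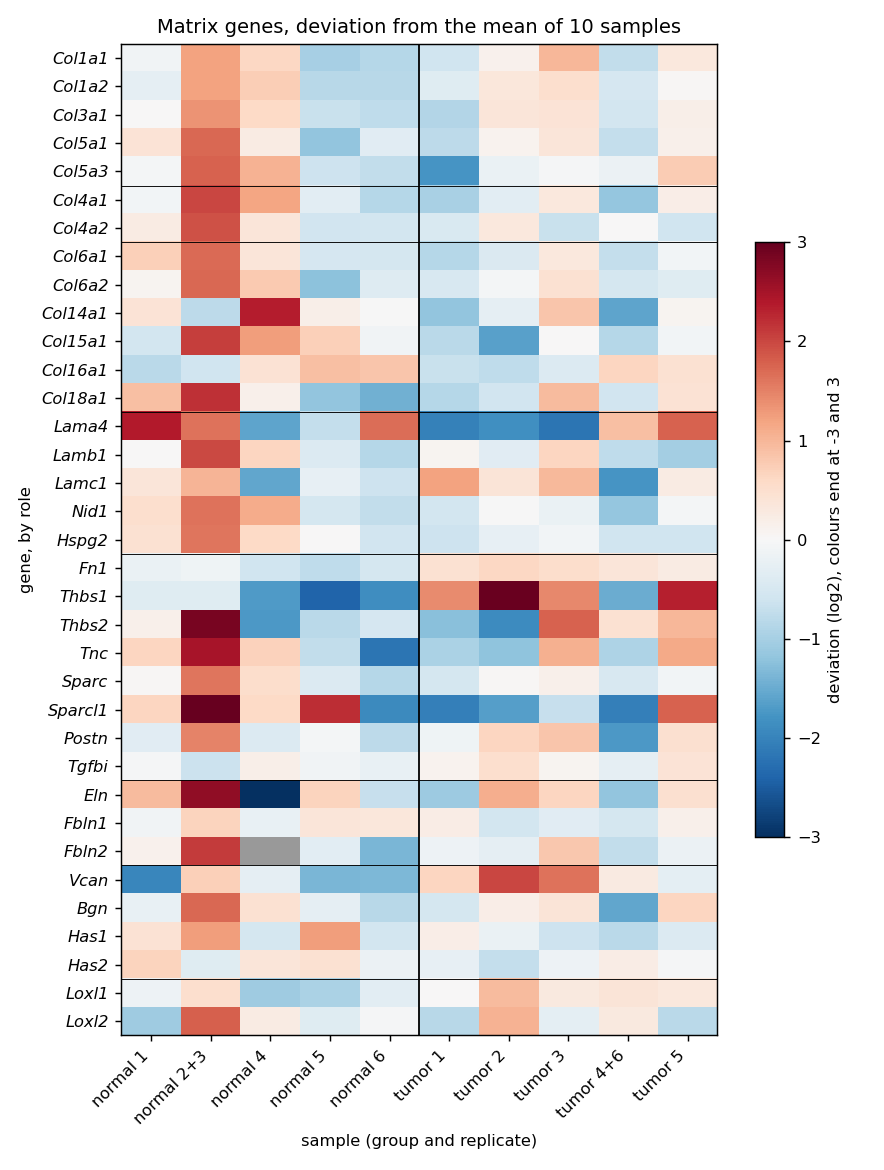
Log2 level of each of the 35 matrix genes tested (rows, grouped by role) in the 10 samples (columns), relative to the mean of that gene over the samples. The column of normal replicates 2 and 3 is the one with most of the high values, and the Fn1 row is higher in all 5 tumor samples than in any normal sample.

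The direction of the whole group of genes rests on that sample. Without it, the median difference over the 35 genes was 0.04 and 18 of them had a higher tumor mean, against -0.34 and 9 with it. Within slides 1 and 2, which each hold 1 of its arrays, the median was -1.09 and -1.06, and within slide 3, which holds none, it was 0.23. Fn1, Thbs1, Vcan, Lamc1, Loxl1 and Tgfbi kept a higher tumor mean under each omission of a sample. Col4a1, Col4a2, Col5a3, Col6a1, Col6a2, Col14a1, Col15a1, Col16a1, Hspg2, Nid1, Lamb1, Lama4, Fbln1, Has1, Has2, Sparc and Sparcl1 kept a lower one. Of these, Col6a2 and Sparc did so only narrowly, at -0.0027 and -0.0014 without normal replicates 2 and 3. Lama4, Has1 and Sparcl1 were well above background on at most 4 arrays of a group.

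The fibroblast, endothelial, epithelial, acinar and cavity macrophage marker lists had their highest mean in the same sample. The monocyte, neutrophil, platelet and mesothelial lists did not, at 0.37, -2.47, -0.99 and 0.41 there. Of 16 fibroblast, stellate cell and pericyte markers, 12 were tested. Their mean was 0.34 in normal replicates 2 and 3, between -1.71 and -0.96 in the other normal samples and between -1.60 and -0.22 in the tumor samples. The list's summed signal ran from 0.00872% to 0.0251% in the normal and from 0.0159% to 0.0285% in the tumor samples. Pdgfra and Dpt, which mark fibroblasts, were well above background on no array, Lum on 0 normal and 1 tumor array and Pdgfrb on 1 of each. Acta2, Clec3b, Dcn, Pdpn, Pi16 and Thy1 were so on all 12. The 12 tested endothelial markers had a mean of 0.71 in that sample and of at most -0.10 in the others, and summed to 0.00599% to 0.0134% in normal and 0.00498% to 0.00859% in tumor samples. The 10 tested epithelial markers had a mean of 2.54 there and of at most 1.62 elsewhere, with sums of 0.0201% to 0.0907% and 0.0235% to 0.0565%. The acinar list was highest there too, at 7.90 against at most 7.03. The macrophage markers stood at 4.58 there, inside their range in the other samples. The part of these cells, or of the low signal of these arrays, in the matrix values was not tested.

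Between the groups, the fibroblast list had a median difference of -0.52 with 1 marker called, Pi16, which rose, and the endothelial and epithelial lists had medians of -0.69 and -0.45 with 0 called. Of 6 mesothelial markers 2 were tested and 0 called. Of 9 neutrophil markers tested, 7 had a higher tumor mean, with a median difference of 1.18, and 1 was called, higher in tumor. Of 8 cavity macrophage markers, a list that also holds Fn1, 8 were tested and 0 called, where 0.854% of all genes tested were called. Of the 8, 3 had a higher tumor mean, Fn1 among them, and 5 a lower one, with a median difference of -0.61. The part of such cells in the Fn1 difference was not tested.

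Other genes of the matrix and of its handling were described from 5 further lists, with 0 calls in any of them. Of all genes tested, 0.854% were called, so 0 calls in lists of 12 to 38 tested genes does not set them apart. Of 23 genes for collagen modification, folding and propeptide processing, 22 were tested, 18 had a lower tumor mean and the median was -0.43. P3h2, a prolyl hydroxylase that the array names Leprel1, was well above background on 4 of 6 normal and 0 of 6 tumor arrays, so the tumor samples give only a bound. Its mean was at least 3.37-fold lower in tumor, but the groups overlapped and it was not called (limma adjusted p = 0.0740). Each tumor array was counted at the probe's own signal or, where higher, at the lowest signal well above background on that array. The bound does not cover the scatter between samples. Pcolce2, an enhancer of procollagen cleavage, differed by -1.16 ± 0.33 (SE; adjusted p = 0.172). Of 28 matrix receptors, 20 were tested, with a median of -0.13. The integrin chain Itga9 differed by -1.68 ± 0.49 (0.181), and the collagen receptor kinase Ddr1 by 1.098 ± 0.34 (0.210), with the tumor samples above all normal ones.

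The genes of collagen uptake and breakdown, a function known of tissue macrophages, were all 18 tested, with a median difference of -0.13. Ctsl, the lysosomal protease cathepsin L, differed by 1.23 ± 0.30 (SE; limma adjusted p = 0.104) and its groups did not overlap. Lyve1, a hyaluronan receptor of resident macrophages and lymphatic vessels, differed by -2.99 ± 0.97 (adjusted p = 0.222), with all tumor samples below the normal ones. The mannose receptor Mrc1, which takes up collagen fragments, differed by -0.18, and its relative Mrc2 by 0.04. Of 23 further collagens, 12 were tested and 9 had a lower tumor mean, with a median of -0.33. Col7a1, the anchoring fibril collagen, differed by -1.84 ± 0.44 (0.0950), and Col4a6 by -0.89 (0.471). Of 54 further matrix glycoproteins and proteoglycans, 38 were tested and 27 had a lower tumor mean, with a median of -0.34. Lamb2, a laminin beta chain, differed by -2.45 ± 0.51 (0.0584), with all tumor samples below the normal ones, and Cyr61, a matricellular integrin ligand, by -2.04 ± 0.48 (0.0934).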

How the data were processed

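Per the labels' protocols, sorted cells were lysed directly, RNA was extracted, and amplified cDNA was labelled with Cy5, so a fold is one of amplified signal. Per the file headers, the intensity values that the authors deposited are red-channel processed signals of Agilent Feature Extraction 11.5.1.1, with background already subtracted. Control spots and outlier-flagged spots (0.401%) were left out, spots of a probe were averaged, and log2 values were set relative to the 75th percentile of their array. The authors also deposited a log2 table, which equalled quantile-normalized log2 processed signals (median absolute difference 0.000129) and served as an alternative. Columns used were those of the 12 arrays.

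Each gene was its brightest probe by mean processed signal. The comparison used limma 3.58.1 (R 4.3.3) with lmFit and eBayes, which was tested on simulated data. Its p-values are two-sided and were adjusted by Benjamini-Hochberg over all 16396 genes, with a median of 10.8 degrees of freedom. Intervals are 95% intervals of the fit. The 3 slides, each with 2 arrays of either group, served as batches. The sums of a marker list are shares of the summed signal of all genes tested. Probe positions are on mm9, per the file headers. Alternatives covered scaling, background, filters, probes, shared sample names, slide, variance model and each sample left out.

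The genes and lists were chosen with earlier results of these data known. Values of every sample are given for genes that passed the test, whose groups did not overlap, that were among the 8 tested with the highest mean, or among the 4 with the largest difference in each direction. Of the pathway lists, the 2 genes with the smallest p are named. Of the marker lists, only genes at or near background were to be named. F10, Hp, Pi16, Mrc1 and Mrc2 fall outside these rules and were named after their values were seen. The markers Csf1r, Cd68, Adgre1, Cd163, Acta2, Clec3b, Dcn, Pdpn and Thy1 fall outside them too.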

Additional observations from a re-analysis of the deposited data

How the results depend on the processing

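With limma, genes called over the whole array were 140. They were 218 with normexp background correction, 461 with the 12 arrays as separate samples, 238 with a variance trend and robust settings, and 0 within each of slides 1, 2 and 3 (1588, 1571 and 946 at an unadjusted p under 0.05), each of which has 2 arrays a group. Leaving out each sample in turn gave 67 (without normal replicate 5) to 199 (without normal replicate 6) calls. Matrix genes called were 0, against 1 under the normexp, separate-array and robust settings, which was Fn1. Leaving out each sample gave 0 to 1 calls, the 1 being Thbs1 without tumor replicates 4 and 6. The slide as a term with the sample name as a block, whose correlation was 0.97, left 150 calls and 0 of the matrix genes. No paired analysis was possible because the labels carry no replicate numbers, and those used here follow accession order.

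Signs turned as follows, and the cause was not tested. Postn was at background on all normal arrays, so its values are not measured changes. Col1a2 was 0.064 with quantile normalization, 0.11 with normexp and 0.065 in the authors' deposited log2 table, and Col3a1 0.0054, Thbs2 -0.27 and Postn -0.28 with normexp. With separate arrays, Col1a1 was -0.28, Lamc1 -0.12, Thbs2 -0.38 and Postn -0.50. Within slide 1, Col1a1 was -0.76, Col16a1 0.14, Thbs2 -2.995 and Postn -0.29, and within slide 2, Col1a1 was -0.76, Lamc1 -0.22, Postn -1.06 and Eln 0.15. Within slide 3, Col1a2 was 0.55, Col3a1 0.55, Col5a1 0.47, Col5a3 0.92, Col4a1 0.13, Col4a2 0.31, Col6a1 0.10, Col6a2 0.30, Col18a1 1.27, Lama4 0.81, Lamc1 -0.29, Nid1 0.014, Tnc 1.60, Sparc 0.32, Postn -0.17, Fbln2 0.39 and Bgn 0.092. Leaving out each sample gave ranges of -0.19 to 0.36 for Col1a1, -0.21 to 0.30 for Col1a2, -0.41 to 0.11 for Col3a1, -0.68 to 0.045 for Col5a1, -0.64 to 0.27 for Col18a1, -0.41 to 0.74 for Thbs2, -0.94 to 0.22 for Tnc, -0.17 to 0.47 for Postn, -0.91 to 0.64 for Eln, -0.74 to 0.42 for Fbln2, -0.59 to 0.046 for Bgn and -0.53 to 0.19 for Loxl2.

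The 12 genes not tested were not well above background on most arrays. The median standard error over all genes tested was 0.36, and among the matrix genes it ran from 0.20 (Fn1) to 0.99 (Eln). With 5 samples a group, small differences could not be called. Differences as large as 2.68 (Thbs1) and 1.69 (Vcan) were not called either. The counts under other scalings and the values without normal replicates 2 and 3 were added after the data were seen.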
